A study of Mus musculus with 53 samples.

Results

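Rnf43 and 8 further genes that set how a cell receives Wnt signals were examined in 4 brain regions of a mouse model of spinocerebellar ataxia type 3 (SCA3). The genes were taken by symbol from the deposited count table, and 9 of its 12372 genes were members. They were Rnf43, Znrf3, Lgr4, Lrp5, Lrp6, Fzd3, Apcdd1, Axin2 and Ctnnb1. The members were chosen by name, and Rnf43 was selected on its measured level, which differed between the genotypes in these libraries. Its genotype difference is therefore given as a description, and its calls in the fit over all genes support nothing.

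The SCA3 mice were hemizygous MJD84.2 mice, which carry human ATXN3 whole, with an expanded CAG repeat and driven by its own human promoter, next to their mouse Atxn3 genes. Controls were wild-type C57BL/6 mice. All mice were male, followed with behavioural tests and blood sampling, and 74 to 77 weeks old. The 53 libraries came from 14 mice (8 wild-type and 6 SCA3), and the same mice gave the regions: brainstem from 8 and 6 mice, cerebellum and cortex from 7 and 6 each, and striatum from 8 and 5. The transgene is active in the whole body, so the model does not tell cell types apart.

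Wnt proteins are secreted ligands that bind a Frizzled receptor such as Fzd3 together with a co-receptor, Lrp5 or Lrp6. Binding halts a destruction complex built on Axin proteins, and β-catenin, the product of Ctnnb1, then accumulates and switches on target genes together with TCF/LEF factors. Rnf43 and Znrf3 are membrane ubiquitin ligases that remove Frizzled and co-receptors from the cell surface, and R-spondins bound to Lgr4 hold these ligases off. Axin2, Rnf43 and Znrf3 are themselves targets of the pathway in many tissues and work as negative feedback. In brain, Wnt signalling is known for its parts in synapse formation, in the blood-brain barrier and in the timing of oligodendrocyte maturation.

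Rnf43 lies on the forward strand of chromosome 11 at chr11:87663087-87735539 (GRCm38, RefSeq), and RefSeq gives 2 transcription starts for it that are 36.8 kb apart. The counts covered the whole gene and could not separate transcripts from these starts, and a gene within an intron on the same strand shares 3936 bases of its span. The 250 bases before each start are shown, with those before the start of Axin2, the classical target gene of the pathway, for comparison. The Axin2 start is that of the promoter table, which lies inside the RefSeq span of the gene (chr11:108917828-108950783). CG dinucleotides, the sites of DNA methylation in mammals, are in capitals. The windows are chr11:87662837-87663086, chr11:87699647-87699896 and chr11:108920099-108920348, all on the forward strand.
Rnf43 first start: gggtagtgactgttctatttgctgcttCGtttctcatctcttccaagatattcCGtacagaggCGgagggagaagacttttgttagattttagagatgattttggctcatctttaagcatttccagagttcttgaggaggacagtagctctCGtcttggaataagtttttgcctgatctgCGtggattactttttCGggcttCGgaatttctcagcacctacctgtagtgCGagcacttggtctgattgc
Rnf43 second start: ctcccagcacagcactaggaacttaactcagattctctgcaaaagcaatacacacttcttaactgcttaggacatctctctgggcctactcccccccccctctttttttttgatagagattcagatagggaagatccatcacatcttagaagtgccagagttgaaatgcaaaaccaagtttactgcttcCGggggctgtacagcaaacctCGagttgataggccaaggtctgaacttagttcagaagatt
Axin2: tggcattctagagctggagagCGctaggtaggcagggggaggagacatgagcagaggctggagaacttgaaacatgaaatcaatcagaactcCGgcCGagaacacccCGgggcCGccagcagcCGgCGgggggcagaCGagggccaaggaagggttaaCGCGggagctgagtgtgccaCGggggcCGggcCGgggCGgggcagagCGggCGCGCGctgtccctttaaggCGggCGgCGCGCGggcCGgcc

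The window before the first Rnf43 start held 8 CG dinucleotides, and that before the second held 2. A window of the same length before the start of a gene had a median of 6 over 32851 RefSeq promoters. The Axin2 window was richer, with 24 CG dinucleotides and a GC content of 69.2%, against 44.4% and 45.2% for the Rnf43 windows. The core of the TCF/LEF motif, TCAAAG or CTTTGA on the other strand, was in none of the 3 windows, nor in the windows of Lgr4 and Ctnnb1, the other members with a promoter entry. These letters occurred in 13.8% of all windows of this length.

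Library totals lay between 31680939 and 76703758 counts. Rnf43 itself had between 108 and 928 counts in a library, and no member had fewer than 108. Levels are counts-per-million (CPM) values after TMM normalisation. A pair of wild-type striatum libraries, from mice 7267058 and 7267059, stood apart: the summed level of 7 thalamic markers was 1205 and 2099 CPM in them, against 99.3 to 335 CPM in the other striatum libraries. The members' differences in striatum are therefore given with and without them. Cerebellar markers set cerebellum apart (2529 to 3560 CPM, at most 210 CPM elsewhere), and striatal projection neuron markers were highest in striatum, but their range there (1968 to 8678 CPM) overlapped that of cortex (580 to 3517 CPM). Cortical neuron markers reached 428 to 1910 CPM in cortex and overlapped with the other regions except brainstem.

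Rnf43 was higher in SCA3 than in wild-type mice in all 4 regions, and in brainstem, cerebellum and cortex no SCA3 library was as low as any wild-type library. In brainstem, the lowest, median and highest wild-type levels were 3.16, 5.54 and 6.83 CPM, and those of SCA3 were 10.9, 11.6 and 12.7 CPM. The means were 5.58 ± 1.21 (SD, n = 8) and 11.6 ± 0.69 CPM (SD, n = 6), a log2 fold change of 1.06 (SE 0.153), or 2.09-fold. The ranges did not overlap, and the gap between them was wider than the whole range of either group.

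In cerebellum, where Rnf43 was lowest, wild-type libraries ran from 2.76 over a median of 3.11 to 3.52 CPM and SCA3 libraries from 4.03 over 5.29 to 6.35 CPM. The log2 fold change was 0.74 (SE 0.162). In cortex, wild-type levels of 3.47, 3.62 and 4.49 CPM (lowest, median and highest) stood against SCA3 levels of 5.44, 6.85 and 8.80 CPM, a log2 fold change of 0.88 (SE 0.161). Both regions thus kept the genotypes apart, at lower levels than brainstem.

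In striatum, the 5 SCA3 libraries had 9.51, 9.61, 10.3, 10.8 and 11.3 CPM. The 8 wild-type libraries ran from 3.98 over a median of 5.57 to 11.9 CPM, and the highest of them lay above every SCA3 library. That library and the second highest, at 8.48 CPM, were the 2 that were rich in thalamic markers. They also had the most mature oligodendrocyte marker RNA of all striatum libraries, with sums of 19128 and 13920 CPM over 10 genes against 6070 to 12173 CPM in the others. The log2 fold change was 0.65 (SE 0.161) with them and 0.94 without them, when the wild-type range was 3.98 to 7.27 CPM and no longer met that of SCA3. In striatum alone, with a covariate for the thalamic markers, it was also 0.94.

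**Figure D1:**
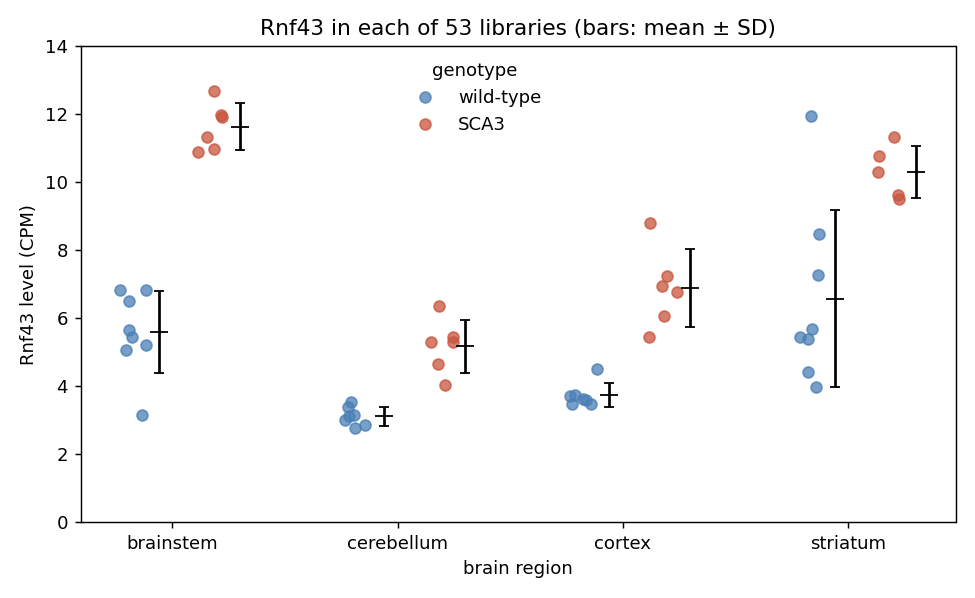
Level of Rnf43 (CPM, linear axis from 0) in each library by region and genotype; each point is 1 library and the bars show the mean and SD of the group. SCA3 points lie above all wild-type points in 3 regions, and in striatum 1 wild-type library, at 11.9 CPM, lies above all SCA3 points.

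Rnf43 was called differentially expressed in each region by the fit over all genes (false discovery rate, FDR, below 0.05), as were 1.92% of all genes in brainstem, 0.0647% in cerebellum, 0.154% in cortex and 7.54% in striatum. Striatum fitted alone called 88 of all 12372 genes, against 933 in the whole fit. Rnf43 was no longer called there, at the same log2 fold change of 0.65. Since the gene was chosen for this contrast, nothing is read from these calls. The mouse numbers in the labels fall into 3 series by their leading digits: the first from 7267054 to 7267059, the second from 9082853 to 9082857 and the third from 9083371 to 9083515. Within the first series the difference in mean log2 CPM was 0.89 in brainstem, 0.66 in cerebellum, 0.95 in cortex and 0.25 in striatum. Within the third series it was 1.20, 0.73, 0.99 and 0.98. The second series held 1 mouse of each genotype, which differed by 1.20, 0.81, 0.27 and 1.05. The direction was thus the same in each series and region, and the smallest value came from the series with both thalamus-rich striatum libraries. Within the third series, the wild-type mice were numbered 9083371 to 9083375 and the SCA3 mice 9083513 to 9083515. These SCA3 mice were 74 weeks old, and the wild-type mice of the series were older. Number and age thus split by genotype there and cannot be told apart from it.

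The difference could also be followed through single mice. Set against the wild-type mean of each region and averaged over its regions, Rnf43 lay between 0.74 and 1.04 (log2) in the 6 SCA3 mice and between −0.33 and 0.37 in the 8 wild-type mice. The highest SCA3 value came from mouse 7267054 in brainstem (1.21), from mouse 9083515 in cerebellum (1.02) and cortex (1.23), and from mouse 9082853 in striatum (0.87). With group means subtracted, the deviations of a mouse in brainstem and striatum correlated with r = 0.57 over 13 mice, whereas the other 5 pairs of regions gave r between −0.06 and 0.24 over 12 or 13 mice. These correlations are a description, and the same thalamus-rich mice enter the first of them.

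**Figure D2:**
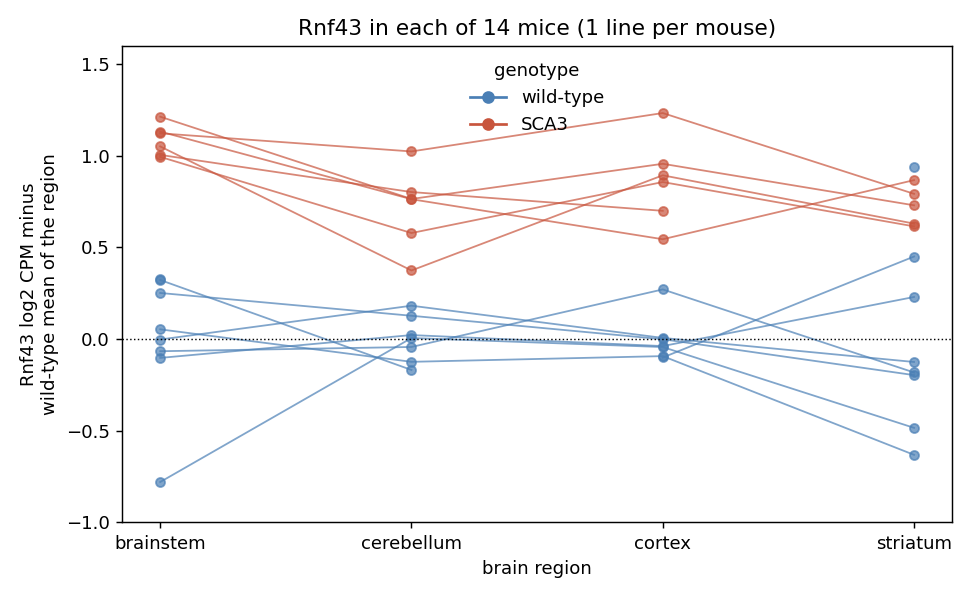
Rnf43 in each mouse across regions, as log2 CPM minus the wild-type mean of the region; each line is 1 mouse, and lines break where a region was not sequenced. The SCA3 lines run above the wild-type lines except in striatum, where 1 wild-type point reaches 0.94.

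Other quantities moved with genotype. Bodyweight was 31.0 ± 2.55 g in SCA3 (SD, n = 6) against 43.4 ± 5.61 g in wild-type animals (SD, n = 8; exact two-sided permutation test, p = 0.000666). RNA integrity (RIN) in brainstem was 7.78 ± 0.264 in SCA3 and 7.24 ± 0.424 in wild-type libraries (exact two-sided permutation test, p = 0.00932, adjusted over 4 regions 0.0373). In the other regions, RIN differed by between −0.075 and 0.121, with exact adjusted p of at least 0.415. With RIN as a covariate in the fit of all libraries, the log2 fold change of Rnf43 in brainstem was 1.11, beside 1.06 without it. The library numbers in the labels split completely by genotype, with every wild-type library before every SCA3 library. Library number can thus not be told apart from genotype. Library totals in brainstem of the first mouse series were 31680939 to 42770596 counts in wild-type and 69277652 to 70527220 in SCA3 mice. In the third series they overlapped (48728894 to 72407198 and 52775826 to 68581525). The parts of bodyweight, library number and library total were not tested.

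Markers of other cells moved as well. In brainstem, 2 of 10 mature oligodendrocyte, 4 of 10 astrocyte and 1 of 8 microglial markers were called lower in SCA3. Among markers of oligodendrocyte precursors and premyelinating cells, 2 of 10 were called higher. Of all genes, 1.92% were called in brainstem in either direction. In striatum, 6 of 7 thalamic, 4 of 10 mature oligodendrocyte, 5 of 10 astrocyte and 1 of 4 cerebellar neuron markers were lower. There, 1 precursor marker was higher, and 7.54% of all genes were called. Without the 2 thalamus-rich libraries, 1 thalamic, 1 cerebellar neuron and 0 mature oligodendrocyte or astrocyte markers were called lower there (edgeR likelihood ratio test). In that fit 1 precursor marker was higher, and 289 of all 12372 genes were called in striatum, against 933 with all libraries. In cortex 1 precursor marker was higher (0.154% of all genes called), and in cerebellum no marker of these lists was called (0.0647%). Choroid plexus markers, of which 3 were in the table, summed to 658 to 1998 CPM in SCA3 cerebellum and to 19.6 to 2118 CPM, with a median of 140.2, in wild-type cerebellum, and none was called. Summed mature oligodendrocyte markers in brainstem ran from 10346 to 21461 CPM in wild-type and from 9435 to 15944 CPM in SCA3 libraries, and in striatum from 6576 to 19128 and from 6070 to 9234 CPM. In bulk tissue, fewer cells of a type and less RNA per cell cannot be told apart, and the part of these markers in the Rnf43 difference was not tested.

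Within the groups, Rnf43 went up and down with genes of myelin and, less closely by median r, with markers of other glia and vessels. With the mean of each region and genotype subtracted, it correlated positively with 10 of 10 mature oligodendrocyte markers over the 53 libraries, with r from 0.68 to 0.82 (median 0.74). The median over all 12371 other genes was −0.01. Without the 2 thalamus-rich libraries the range was 0.58 to 0.72. When region means alone were subtracted, so that the genotype difference stayed in, the same markers gave r from −0.33 to 0.49 and 6 of 10 were positive. Mobp, a protein of the myelin sheath, is an example: its r with Rnf43 was 0.82 within groups and −0.15 within regions, and its log2 fold change in brainstem was −0.67 where that of Rnf43 was 1.06. Rnf43 thus went with Mobp among libraries of the same region and genotype and against it between genotypes. Cldn11 (0.72 and −0.16) and Aspa (0.68 and −0.30) had the same pattern, but Mog, a marker of late myelination, was positive in both (0.77 and 0.49). Of the 10 markers of precursors and premyelinating cells, 9 were positive within groups and 9 within regions. Bcas1 (0.78 and 0.65), Enpp6 (0.64 and 0.76) and Olig1 (0.52 and 0.76) were positive in both. Within groups 4 of the 10 were near or below 0.12: Gpr17, a marker of premyelinating cells, had 0.12 and 0.37, Pdgfra, a marker of precursors, 0.08 and −0.13, Cspg4 0.03 and 0.10, and Tnr −0.18 and 0.06. Within groups, r was also positive for 9 of 10 astrocyte markers (median 0.49), 8 of 8 microglial markers (median 0.46), 7 of 7 thalamic markers (median 0.35) and 11 of 11 endothelial markers (median 0.27), and for 1 of 8 markers of striatal projection neurons. Without the 2 thalamus-rich libraries these became 8 of 10 astrocyte (median 0.27), 8 of 8 microglial (0.34), 4 of 7 thalamic (0.02), 11 of 11 endothelial (0.23) and 6 of 8 striatal projection neuron markers (0.02), while the mature oligodendrocyte median was 0.63. These values share libraries, mice and tissue composition.

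**Figure D3:**
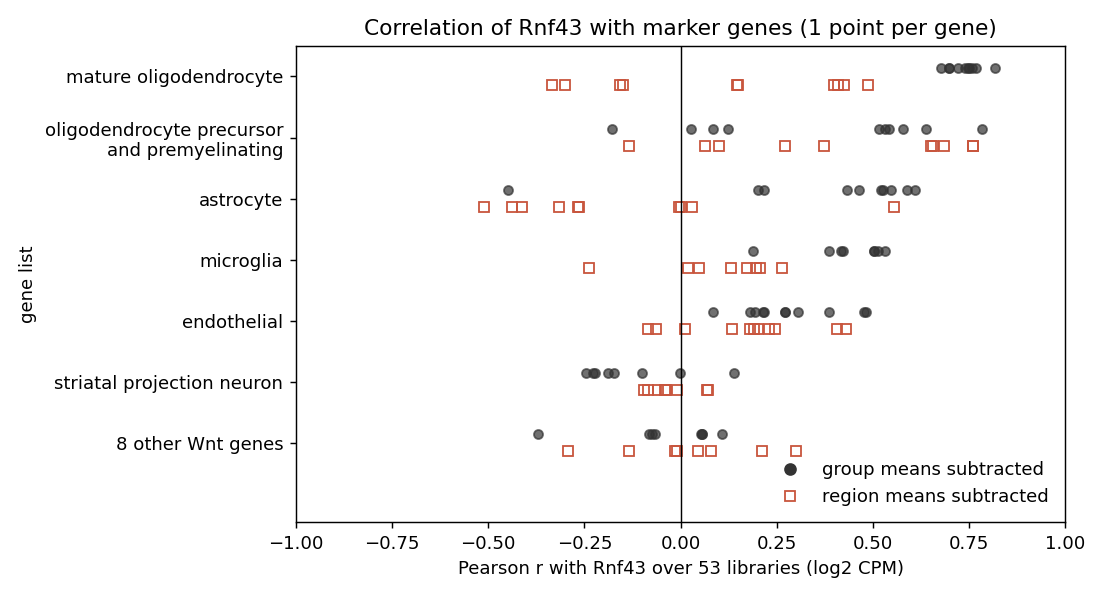
Pearson r between the log2 CPM of Rnf43 and of marker genes over 53 libraries, 1 point per gene, with group means (filled circles) or region means (open squares) subtracted. Mature oligodendrocyte markers lie between 0.68 and 0.82 with group means subtracted and spread from −0.33 to 0.49 with region means subtracted, and the 8 other Wnt genes lie between −0.37 and 0.11 with group means subtracted.

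The genes most like Rnf43 over all 53 libraries, by Pearson r of log2 CPM, were Chdh (0.94), Zfp488 (0.93), Psat1 (0.91), Prob1 (0.91) and Cd82 (0.86). After region means were subtracted, the same 5 genes led, with r of 0.93 for Chdh, 0.93 for Psat1, 0.91 for Zfp488, 0.89 for Prob1 and 0.87 for Cd82. Chdh encodes choline dehydrogenase, Psat1 an enzyme of serine synthesis, Zfp488 a zinc finger protein of oligodendrocytes and Cd82 a tetraspanin. With group means subtracted their r fell to between 0.57 and 0.81, and the leading genes, named after their values were seen, were then Adipor2 (0.85), Arhgef10 (0.84), Lgi3 (0.83), Ndrg1 (0.83) and Nde1 (0.82). Without the 2 thalamus-rich libraries the leading genes within groups were Arhgef10 (0.78), Psat1 (0.76), Adipor2 (0.75), Ndrg1 (0.74) and Mobp (0.72). None of the other members was among these: within groups their r with Rnf43 lay between −0.37 (Axin2) and 0.11 (Lrp5).

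Among the wild-type libraries, Rnf43 ran in the order striatum (6.58 ± 2.61 CPM), brainstem (5.58 ± 1.21 CPM), cortex (3.73 ± 0.35 CPM) and cerebellum (3.11 ± 0.28 CPM; SD, n = 8, 8, 7 and 7). Each neighbouring pair in this order overlapped. Without the 2 thalamus-rich libraries striatum stood at 5.37 ± 1.14 CPM (SD, n = 6), below brainstem. In SCA3 brainstem was also above striatum, with 11.6 ± 0.69 CPM in brainstem and 10.3 ± 0.77 CPM in striatum, and these ranges overlapped. Cortex (6.88 ± 1.14 CPM) and cerebellum (5.18 ± 0.78 CPM) followed and overlapped with each other, but neither reached the lowest striatum library of SCA3.

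Znrf3, the paralogue of Rnf43, did not follow it. Its gene lies on the reverse strand at chr11:5276329-5444847. In brainstem, the lowest, median and highest levels were 12.0, 13.4 and 16.0 CPM in wild-type and 11.6, 12.4 and 15.6 CPM in SCA3 libraries. The log2 fold changes were −0.06 (95% interval −0.23 to 0.11) in brainstem, 0.04 (−0.14 to 0.22) in cerebellum, 0.06 (−0.12 to 0.23) in cortex and 0.02 (−0.16 to 0.20) in striatum. The groups overlapped in each region and none of the 4 passed the test (edgeR likelihood ratio test, FDR of at least 0.828). The intervals leave room for differences of up to 0.23 on the log2 scale.

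**Figure D4:**
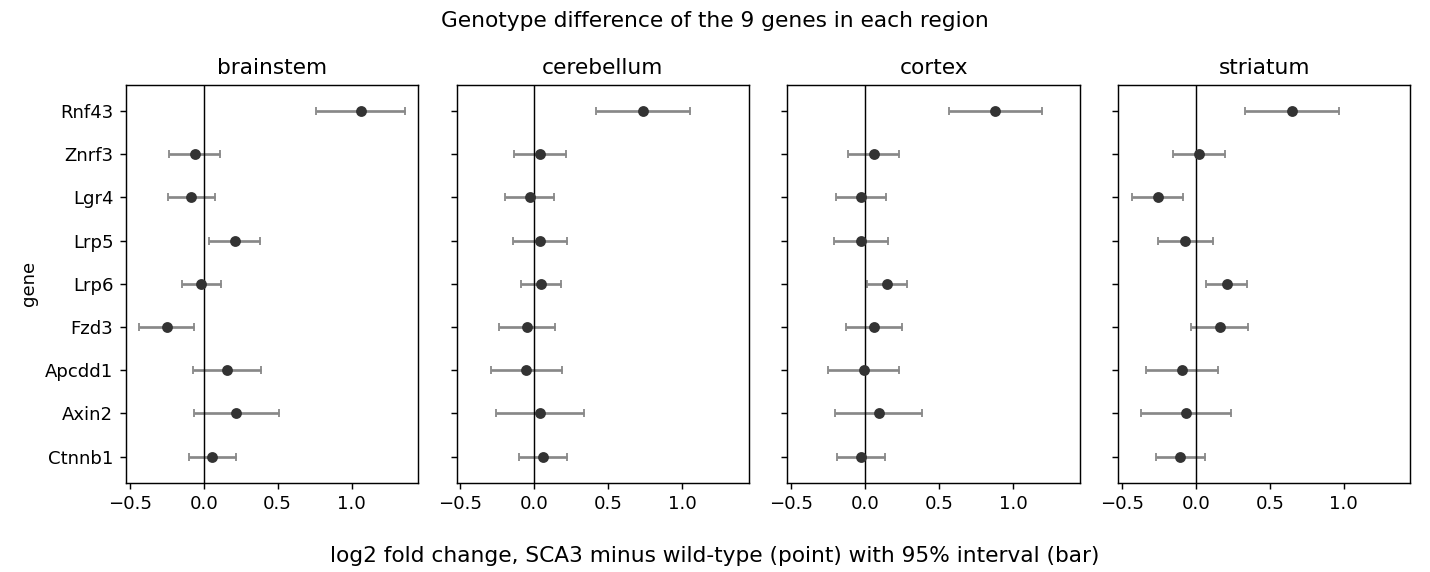
Log2 fold change of SCA3 over wild-type for the 9 genes in each region (points) with the 95% interval (bars); the vertical line marks no difference. Rnf43 lies at 0.65 to 1.06 and the other 8 genes between −0.26 and 0.22.

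Of the 8 members other than Rnf43, 0 were called in brainstem (1.92% of all genes), cerebellum (0.0647%) and cortex (0.154%), and 2 in striatum. At an unadjusted p below 0.05, 2 passed in brainstem, 0 in cerebellum, 1 in cortex and 2 in striatum, beside 13.3%, 1.66%, 4.07% and 23.2% of all genes. DESeq2 and the edgeR quasi-likelihood test also called 0 in the first 3 regions. The 2 striatal calls compare with the 7.54% of all genes called there, so 8 members are too few to read anything from the count. The test of region dependence called 0 of the 8 (0.218% of all genes), with 1 at an unadjusted p below 0.05 (9.09% of all genes), and the combined test of a genotype effect in any region called 0 as well (4.73% of all genes), with 3 at an unadjusted p below 0.05 (16.6% of all genes). The smallest FDR was 0.375 in the former, for Fzd3, and 0.1002 in the latter, for Lrp6.

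Lgr4, the receptor for R-spondins, was called lower in SCA3 striatum. The SCA3 libraries had 29.5, 31.8, 32.3, 35.2 and 38.9 CPM, and the wild-type libraries ran from 32.7 over a median of 41.5 to 44.9 CPM. The groups overlapped, but 6 of 8 wild-type libraries lay above every SCA3 library. The log2 fold change was −0.26 (SE 0.087, FDR 0.0446 by the edgeR likelihood ratio test). The call was lost without the 2 thalamus-rich libraries (−0.23, FDR 0.186) and in striatum analysed alone (−0.26, FDR 0.247). Over all 12372 genes, these fits called 289 and 88 in striatum, against 933 in the whole fit. In the other regions the log2 fold change of Lgr4 was −0.08, −0.03 and −0.03.

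Lrp6, a co-receptor of the Wnt receptors, was called higher in SCA3 striatum. The SCA3 libraries had 96.2, 97.1, 103, 105 and 112 CPM, and the wild-type libraries ran from 75.8 over a median of 86.3 to 106 CPM. The groups overlapped, with 6 of 8 wild-type libraries below every SCA3 library. The log2 fold change was 0.21 (SE 0.071, FDR 0.042 by the edgeR likelihood ratio test), and the call was lost in the same way (0.18, FDR 0.192, without the 2 libraries, and 0.21, FDR 0.302, in striatum alone). In cortex, Lrp6 differed by 0.15 and 5 of 6 SCA3 libraries lay above the highest wild-type library, but this did not pass (FDR of 1 by the edgeR likelihood ratio test).

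Leaving out 1 mouse at a time ended the striatal call of Lgr4 in 10 of 14 fits (FDR up to 0.198) and that of Lrp6 in 9 of 14 (FDR up to 0.193). The call of Lgr4 stayed without wild-type mice 9082857 and 9083371 or SCA3 mice 9082853 and 9083514, and was lost when any 1 of the other 10 mice was left out. The call of Lrp6 stayed without wild-type mice 9082857, 9083371 and 9083375 or SCA3 mice 9082853 and 9083514, and was lost without any 1 of the other 9. Both calls thus lay close to the threshold. Within the first and the third series of mouse numbers, Lgr4 in striatum differed by −0.49 and −0.22 and Lrp6 by 0.42 and 0.15, whereas the single mice of each genotype in the second series differed the other way (0.18 for Lgr4 and −0.12 for Lrp6).

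Lrp5, the other co-receptor, differed by 0.21 (SE 0.089) in brainstem, where 3 of 6 SCA3 libraries lay above all wild-type libraries, and by −0.07 to 0.04 elsewhere. Fzd3, a Frizzled receptor known for axon guidance, differed by −0.25 (SE 0.094) in brainstem, where wild-type libraries ran from 75.0 over 93.2 to 110 CPM and SCA3 libraries from 69.7 over 78.4 to 85.0 CPM, and by 0.16 (SE 0.099) in striatum. Neither passed the test in brainstem (FDR 0.248 and 0.166 by the edgeR likelihood ratio test), and the difference in Fzd3 between regions did not pass either. RIN differed between the genotypes in brainstem, and with RIN as a covariate in brainstem alone the values were −0.10 for Fzd3 and 0.13 for Lrp5.

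Apcdd1, a membrane inhibitor of Wnt signalling, differed by 0.16 in brainstem, −0.06 in cerebellum, −0.01 in cortex and −0.09 in striatum, with SE of 0.118 to 0.125. Axin2, the scaffold and feedback target, differed in the same order by 0.22, 0.04, 0.09 and −0.07, with SE of 0.147 to 0.154. In brainstem, Axin2 ran from 14.5 over 20.6 to 40.3 CPM in wild-type and from 19.7 over 24.2 to 40.0 CPM in SCA3 libraries, so the spread within each genotype exceeded the difference between them. Leaving out 1 mouse moved Axin2 in brainstem to between 0.07 (without SCA3 mouse 9083515) and 0.38 (without wild-type mouse 7267055), and Apcdd1 in brainstem to as low as 0.06 (without SCA3 mouse 7267054). Ctnnb1 differed by 0.06, 0.06, −0.03 and −0.10, with SE of 0.081 to 0.085. In striatum without the 2 thalamus-rich libraries, Ctnnb1 differed by −0.02, Axin2 by −0.17 and Apcdd1 by −0.08, and with the thalamic covariate in striatum alone by 0.02, −0.19 and −0.07, so the sign for Ctnnb1 turned. The other members not called there, Znrf3, Lrp5 and Fzd3, differed by 0.02, −0.08 and 0.14 without these libraries. The span of Ctnnb1 overlaps that of Ulk4 on the other strand by 5157 bases and that of Axin2 overlaps an antisense gene by 2706 bases, and the counting did not use strand.

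Per kilobase of exon, the 9 genes spanned a wide range of wild-type levels. Ctnnb1 stood at 87.3 to 106 CPM per kb over the 4 regions, Fzd3 at 6.02 to 12.0, Lgr4 at 6.51 to 11.01, Lrp6 at 5.40 to 6.74 and Axin2 at 4.16 to 5.95. Znrf3 stood at 1.73 to 2.99, Apcdd1 at 1.11 to 1.36 and Lrp5 at 1.05 to 1.25 CPM per kb. Rnf43 was the lowest in each wild-type region, at 0.475 to 1.00 CPM per kb. In SCA3 it stood at 0.789 to 1.77 and remained the lowest in cerebellum and cortex. In SCA3 brainstem Rnf43 (1.77) lay above Znrf3 (1.66), Lrp5 (1.45) and Apcdd1 (1.24), and in SCA3 striatum (1.57) above Lrp5 (1.08) and Apcdd1 (1.05). In wild-type brainstem it stood at 0.851, against 1.73 for Znrf3. Exon lengths were taken from the union of annotated exons, and unexpressed exons lower such values.

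**Figure D5:**
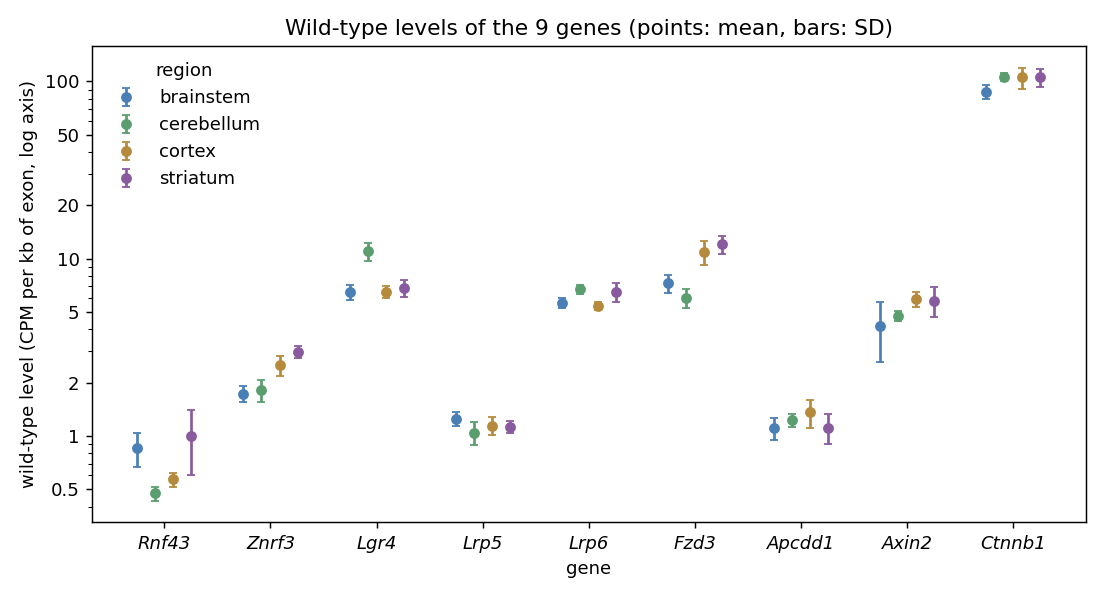
Wild-type levels of the 9 genes in CPM per kilobase of exon (log axis) by region; points are means and bars SDs over 7 or 8 libraries. Ctnnb1 is highest at 87.3 to 106 and Rnf43 lowest at 0.475 to 1.00.

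The 8 members other than Rnf43 differed between wild-type regions in 26 of 48 comparisons (edgeR likelihood ratio test, FDR below 0.05). They passed in 5 of 8 between brainstem and cerebellum (72.6% of all genes), 5 between brainstem and cortex (65.4%), 5 between brainstem and striatum (64.2%), 5 between cerebellum and cortex (69.7%), 3 between cerebellum and striatum (69.5%) and 3 between cortex and striatum (34.4%). With the mouse as replicate block in the wild-type libraries alone, 25 of 48 passed. With 8 members the shares were 62.5% in the first 4 pairs and 37.5% in the last 2, near or below those of all genes.

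Znrf3 was highest in striatum (23.6 ± 1.98 CPM) and cortex (19.9 ± 2.54 CPM), which differed by 0.25 on the log2 scale (FDR 0.00954, edgeR), and lower in cerebellum (14.3 ± 2.00 CPM) and brainstem (13.7 ± 1.46 CPM), which did not differ beyond their spread (FDR 0.499). Lgr4 was highest in cerebellum, at 64.8 ± 7.48 CPM, and stood between 38.3 and 40.2 CPM in the other regions, none of which passed against another. Fzd3 was highest in striatum (154 ± 18.7 CPM) and cortex (140 ± 20.9 CPM), followed by brainstem (92.9 ± 11.4 CPM) and cerebellum (77.1 ± 9.74 CPM), and only the first 2 did not differ (FDR 0.214).

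Lrp6 was higher in cerebellum (92.2 ± 5.43 CPM) and striatum (88.9 ± 10.7 CPM) than in brainstem (76.9 ± 5.06 CPM) and cortex (73.8 ± 3.78 CPM), with no difference passing within either pair. Ctnnb1 was lower in brainstem (453 ± 40.0 CPM) than in the other regions (547 to 551 CPM), which did not differ among themselves. Axin2 was higher in cortex and striatum than in brainstem, and in cortex than in cerebellum. Lrp5 passed in 1 comparison, being higher in brainstem than in cerebellum, and Apcdd1 in 2, being highest in cortex.

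A list of 102 further genes of the pathway was counted, of which 66 were in the table. None was called in brainstem, cerebellum or cortex by the edgeR likelihood ratio test, where 6, 0 and 2 had an unadjusted p below 0.05 (9.09%, 0% and 3.03% of the list, beside 13.3%, 1.66% and 4.07% of all genes). DESeq2 called 1 in brainstem (Apc, the scaffold of the destruction complex, named here after its value was seen) and 0 in the other 2 regions. Apc differed there by −0.33 in DESeq2 (FDR 0.0378) and by −0.33 in the edgeR likelihood ratio test (FDR 0.0585). Further fits called it too, such as brainstem alone (−0.33, FDR 0.0333, edgeR likelihood ratio test). Wls, which carries Wnt proteins to the cell surface and is also named after its values were seen, differed in brainstem by 0.23 (FDR 0.391) with all libraries, by 0.36 (FDR 0.0175) in libraries with a RIN of at least 7 and by 0.63 (FDR 3.24e-07) with RIN as a covariate in brainstem alone (edgeR likelihood ratio test). In striatum 5 were called, 2 higher and 3 lower, which is 7.58% of the list beside 7.54% of all genes, and 16 had an unadjusted p below 0.05 (24.2% beside 23.2% of all genes). The median log2 fold change of the list was 0.07 in brainstem, 0.01 in cerebellum, 0.03 in cortex and −0.01 in striatum, beside 0.0028, −0.0043, −0.0024 and −0.0031 over all genes. Its median size without sign was 0.14 in brainstem beside 0.08 over all genes, 0.07 in cerebellum beside 0.04, 0.06 in cortex beside 0.06 and 0.16 in striatum beside 0.11.

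By role, 0 of 6 ligands, 0 of 2 genes of ligand release, 0 of 2 genes of R-spondins and their receptors, 0 of 4 extracellular inhibitors, 0 of 21 genes of the destruction complex and relay, and 0 of 3 further targets were called in striatum. The calls were 2 of 14 receptors and co-receptors and 3 of 14 nuclear factors. Fzd1 and Fzd9, both Frizzled receptors, were lower by −0.84 (SE 0.212) and −0.55 (SE 0.141). Ctnnbip1, which keeps β-catenin from TCF factors, was lower by −0.52 (SE 0.110). The co-repressors Tle4 and Tle1 were higher by 0.43 (SE 0.109) and 0.32 (SE 0.0955).

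These 5 genes were named because they passed. The groups overlapped for each of them. Ctnnbip1 ran from 23.2 over a median of 28.9 to 47.0 CPM in wild-type striatum and from 19.1 over 21.5 to 25.2 CPM in SCA3 striatum (FDR 0.000593, edgeR likelihood ratio test). Its highest wild-type values, 47.0 and 40.3 CPM, were those of the thalamus-rich libraries. Fzd1 ran from 5.42 over 14.6 to 18.1 CPM in wild-type and from 5.20 over 6.60 to 9.43 CPM in SCA3 libraries, and Tle4 from 61.8 over 107.9 to 155 CPM and from 133 over 144.9 to 158 CPM. Most libraries of the genotypes were thus apart, with 6 of 8 wild-type libraries above every SCA3 library for Ctnnbip1, Fzd1 and Fzd9, and 7 of 8 below every SCA3 library for Tle4, but 5 of 8 for Tle1.

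The calls depended on the libraries and on the fit. Over all genes, 289 of 12372 were called in striatum without the 2 thalamus-rich libraries, against 933 with them. Without the 2 thalamus-rich libraries, 3 of the 5 stayed: Ctnnbip1 at −0.32 (FDR 0.0232), Tle4 at 0.30 (FDR 0.0425) and Fzd1 at −0.78 (FDR 0.037; all by the edgeR likelihood ratio test). The difference of Ctnnbip1 was thereby over 1.5 times smaller than its −0.52 with all libraries. Fzd9, at −0.49 (FDR 0.0519), and Tle1, at 0.22 (FDR 0.188), no longer passed. With the striatum libraries fitted alone, 0 of 66 pathway genes were called, whether or not thalamic markers entered as a covariate. These fits called 88 of all 12372 genes without the covariate and 113 with it, so nothing is read from the 0. Without the covariate, the log2 fold changes there were close to those of the whole fit (Ctnnbip1 −0.52, Tle4 0.44, Fzd9 −0.55, Fzd1 −0.83 and Tle1 0.33). With the covariate they were smaller, at −0.25 for Ctnnbip1, 0.25 for Tle4, 0.17 for Tle1, −0.39 for Fzd9 and −0.61 for Fzd1. In the second series of mouse numbers, with 1 mouse of each genotype, all 5 genes differed in the direction opposite to that of the whole group (Fzd1 by 0.79, Ctnnbip1 by 0.02, Tle4 by −0.10, Fzd9 by 0.29 and Tle1 by −0.14). The part of tissue composition in these differences was not tested.

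Over all regions together, the combined test called 4 of the 66 pathway genes (Ctnnbip1, Tle4, Fzd9 and Fzd1, beside 4.73% of all genes), and 12 had an unadjusted p below 0.05 (18.2% beside 16.6% of all genes). With the mouse as replicate block in limma-voom it called 0. Without the 2 thalamus-rich libraries, the combined test in edgeR called none of these 4. It then called Wnt3 (FDR 0.0203) and Dact1 (FDR 0.028), both named after their values were seen. The test of region dependence called 0 of 66 (smallest FDR 0.142 by edgeR), with 9 at an unadjusted p below 0.05 (13.6% beside 9.09% of all genes). Outside striatum, the edgeR likelihood ratio test called no gene of the list. The log2 fold changes there of the 5 genes called in striatum lay between −0.10 and 0.24 (Fzd1 in brainstem).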

How the data were processed

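RNA was sequenced from brainstem, cerebellum, cortex and striatum of SCA3 and wild-type mice as non-stranded, poly-A selected libraries. The authors trimmed the reads, aligned them to GRCm38, counted them per RefSeq gene without strand and kept genes averaging above a minimum level, and the deposited values are raw read counts per gene. The submitters' processing notes name bcl2fastq 1.8, FastQC 0.11.2, cutadapt 1.10, STAR 2.3.0e, HTSeq 0.6.1 and edgeR 3.14.0. A gene below the minimum is not analysed here.

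All 53 libraries and 12372 genes were fitted together as 8 groups of region and genotype in edgeR 4.0.16 (R 4.3.3) with TMM normalisation and the likelihood ratio test, and p-values were adjusted over all genes (Benjamini-Hochberg, FDR below 0.05). Log2 CPM used a prior count of 2, and 95% intervals are normal intervals from the fitted SE. The interaction of genotype and region gave the test of region dependence, and the 4 genotype contrasts were tested jointly for an effect in any region. Alternatives used the edgeR quasi-likelihood test, DESeq2 1.42.0, limma-voom (limma 3.58.1) with and without the mouse as block, RLE size factors, at least 10 counts in every library (12337 genes), covariates, libraries with a RIN of at least 7 (49), each region alone and leaving out each mouse. After the data were seen, fits without the 2 thalamus-rich libraries, with an endothelial covariate and with RIN in each region alone were added, as was centring on groups for the correlations. The scripts were tested on simulated counts.

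The members and gene lists were chosen with earlier results of these data known. Named genes were the members, the called pathway genes, the 5 genes most like Rnf43 under each centring and marker genes beside a result. Apc, Wls, Wnt3 and Dact1 were added after their values were seen. Each library is 1 mouse, and mouse numbers pair regions: deviations from group means of the same mouse in different regions correlated with a mean r of 0.0904 to 0.186. Genotype contrasts within a region are unpaired. Promoter windows came from RefSeq (GRCm38), where 4 of 9 members had an entry, and exon lengths and overlapping genes from the GENCODE annotation of the same build. One marker gene is not reported here by name.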

Additional observations from a re-analysis of the deposited data

Results flagged for a closer look

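In 72 groups of 5 to 8 libraries (9 genes in 8 groups), 8 groups had 1 library far from the others by Dixon's criterion, which chance alone gives in about 1 of 20 groups. Rnf43 in wild-type cortex was highest in mouse 9082857, at 4.49 CPM, with the next library at 3.74 CPM. This library still lay below all SCA3 cortex libraries. Lrp6 was far on the low side in both genotypes of cortex, at 70.1 CPM in SCA3 mouse 9082853 (next 81.8 CPM) and at 66.1 CPM in wild-type mouse 7267058 (next 73.4 CPM). Apcdd1 was far on the low side in wild-type cortex, at 11.2 CPM in mouse 7267055 (next 17.4 CPM), and on the high side in SCA3 brainstem, at 21.0 CPM in mouse 7267054 (next 16.5 CPM). The other far libraries were high ones: Znrf3 at 18.4 CPM in wild-type cerebellum of mouse 7267059 (next 14.7 CPM), Lrp5 at 12.5 CPM in SCA3 cortex of mouse 9083514 (next 10.8 CPM) and Ctnnb1 at 543 CPM in wild-type brainstem of mouse 7267055 (next 468 CPM). Mouse 7267055 was far in 2 of the 8 groups, for different genes and in different regions.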

How the results depend on the processing

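The log2 fold change of Rnf43 stayed positive under all 28 alternatives in each region, at 0.97 to 1.22 in brainstem, 0.67 to 0.80 in cerebellum, 0.80 to 0.94 in cortex and 0.57 to 0.94 in striatum. The calls in striatum moved most. Of the 66 pathway genes, 5 were called, against 2 with libraries of RIN at least 7, 3 without the 2 thalamus-rich libraries, and 0 in striatum alone, with the thalamic, endothelial or RIN covariate there or without one. Leaving out 1 mouse gave 3 to 10, with 10 without wild-type mouse 9082857. Over all 12372 genes, 933 were called in striatum. RIN at least 7 called 139 there, the fit without the 2 libraries 289 and the fits of striatum alone 80 to 113. The count of members called in striatum was 2, against 1 in limma-voom with or without the replicate block, and 0 with RIN at least 7, without the 2 thalamus-rich libraries and in each fit of striatum alone, and leaving out 1 mouse gave 0 to 2. In brainstem, where 0 pathway genes were called, DESeq2, RIN at least 7, the region alone with no, the thalamic or the RIN covariate, and the fit without the 2 libraries called 1, and the mouse series as covariate called 2. The call was Wls with RIN at least 7 and with the RIN covariate, and Apc in the others that called 1. With the mouse series, the calls were Apc and Dact1. Leaving out 1 mouse gave 0 to 2 there. In cortex, the RIN covariate in cortex alone called 1 in place of 0.

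Mouse numbers pair the regions, so the replicate block bears on tests across regions. The combined test called 4 pathway genes, against 0 in limma-voom with the mouse as replicate block, 2 without the block, 2 in the quasi-likelihood test, 2 with RIN at least 7, 2 without the 2 thalamus-rich libraries and 0 to 8 leaving out 1 mouse (8 without wild-type mouse 9083371, 0 without SCA3 mouse 7267056 or 9083515). Of these, the 2 with RIN at least 7 were Wls and Ctnnbip1. The 2 without the thalamus-rich libraries were Wnt3 and Dact1, so none of the 4 stayed in that fit. The test of region dependence called 0 and leaving out 1 mouse gave 0 to 4 (4 without wild-type mouse 9082857). The wild-type region count of 26 lay between 23 and 27 in all alternatives, and the block changed no other call count by over 1.5 times. The causes were not tested. No called result changed sign, but 30 values that were called under neither setting did, among them Lgr4 in brainstem (−0.12 to 0.03) and Znrf3 in striatum (−0.02 to 0.06). The striatal call of Lgr4 was lost in 18 of 28 alternatives and that of Lrp6 in 15. Rnf43 had 108 to 928 counts in a library, so counting error is part of the spread of its values, most where it was lowest, in wild-type cerebellum.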
